A study of Mus musculus with 13 samples.

Results

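The B cell genes described here are Cd79a, Cd79b, Blk, Ms4a1, Cd22, Cr2, Fcer2a, Pax5 and Spib, 9 of 18193 genes with a named probe set on the array. All probe sets of each gene were taken by symbol, and the one with the highest mean over the arrays stood for the gene. All 9 lay above the floor (the lowest level treated as measured, 2.01 on the log2 scale) on all 13 arrays, and all 9 were among the 15384 genes tested. The RNA came from cells that were sorted by FACS on CD31, a surface protein of endothelial cells that some leukocytes also carry, out of SKOV3ip1 tumors. SKOV3ip1 is a human ovarian cancer cell line, which was grown in female athymic nude mice according to the study's methods, and the B20 antibody blocks VEGF-A, on which growing blood vessels depend. There were 5 arrays labelled control, and 4 arrays each from B20-treated tumors labelled sensitive and B20-treated tumors labelled resistant. The study's methods describe control IgG for mice not given B20, while the labels of these arrays say only control. The B20 antibody was injected into the peritoneal cavity per the study's methods. Neither the age of these mice nor the day of harvest of each array is given in the labels, and arrays are not tied to named animals. P-values therefore measure the spread between these samples, which may be in part technical.

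B cells carry an antigen receptor, a membrane immunoglobulin that signals through the CD79A and CD79B chains and through Src family kinases such as BLK. CD20 (Ms4a1), CD22, the complement receptor CD21 (Cr2) and the low-affinity IgE receptor CD23 (Fcer2a) sit on the surface of mature B cells, and Pax5 and Spib encode transcription factors of the lineage. Athymic nude mice lack mature T cells but make B cells and NK cells. Endothelial cells are not known to express these genes, so they are read here as levels in a mixed sort. Fewer B cells and less of the RNA per B cell cannot be told apart in such bulk samples.

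Sensitive array 3 had the highest level of 8 of the 9 genes, against 15.8% of all genes tested, and Pax5 was the exception. It exceeded every other array by more than 2-fold for 7 of the 9, against 506 of the 15384 genes tested (3.29%). It exceeded the median of the other 12 arrays by more than 2-fold for 8 of the 9, against 11.7% of the genes tested. The median of the 9 genes was 6.74 on this array on the normalized log2 scale, 5.48 on resistant array 3, 4.90 on control array 1 and at most 3.77 (lowest 2.97) on the remaining 10. The other 3 sensitive arrays had medians of 3.25, 3.15 and 3.13, so the high level was that of 1 sensitive array and not of the sensitive group. With a single array, this excess has no replicate check and no test.

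**Figure D1:**
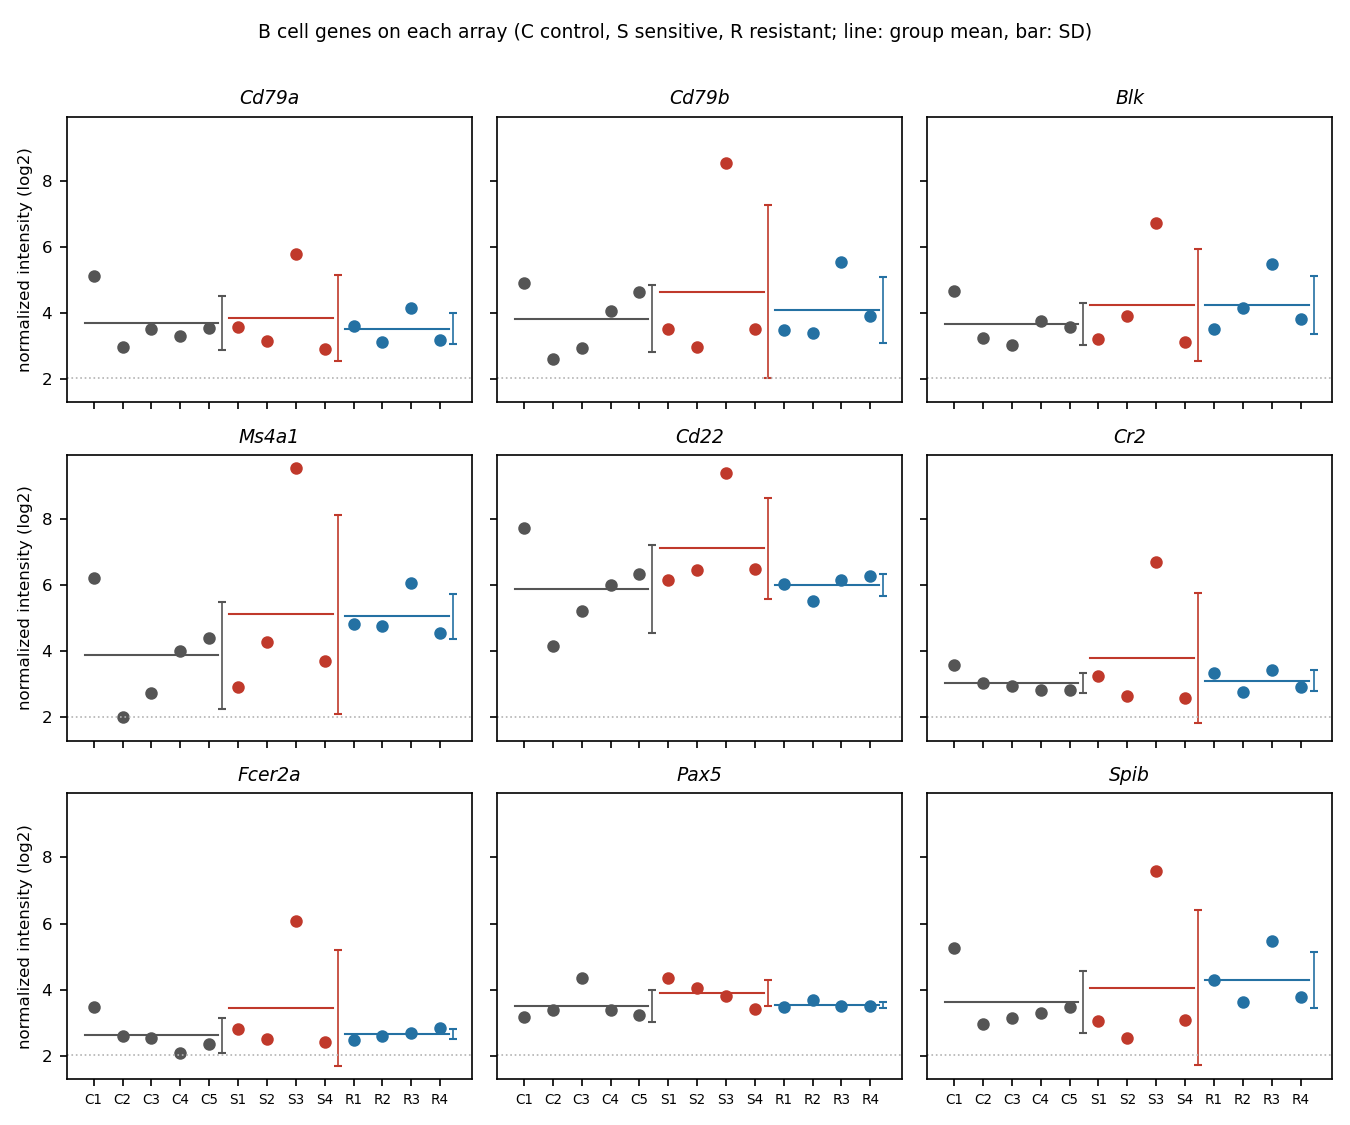
Normalized log2 intensity (y axis) of each B cell gene on the 13 arrays (x axis; C control, S sensitive, R resistant), with lines for group means, bars for the SD and a dotted line for the floor. Sensitive array 3 is the highest point in every panel except that of Pax5, and control array 1 and resistant array 3 are often the next.

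The chains and the kinase of the antigen receptor differed in the size of this excess. Cd79b, a signaling chain of the receptor, read 4.90, 2.62, 2.93, 4.07 and 4.64 on control arrays 1 to 5, 3.53, 2.98, 8.55 and 3.50 on sensitive arrays 1 to 4, and 3.50, 3.39, 5.53 and 3.90 on resistant arrays 1 to 4. Sensitive array 3 stood 3.01 above the next array on the log2 scale, 8.08-fold, while the other 3 sensitive arrays lay inside the range of the controls. The partner chain Cd79a read 5.10, 2.97, 3.51, 3.31 and 3.54 on the control arrays, 3.56, 3.15, 5.77 and 2.91 on the sensitive arrays and 3.61, 3.12, 4.16 and 3.19 on the resistant arrays. Its excess on sensitive array 3 over control array 1 was only 0.67, so the excess was smaller for this probe set than for that of the chain it pairs with. Blk, the Src family kinase, read 4.66, 3.24, 3.03, 3.75 and 3.58 on the control arrays, 3.22, 3.90, 6.74 and 3.13 on the sensitive arrays and 3.52, 4.14, 5.48 and 3.80 on the resistant arrays. Resistant array 3 was 1.26 below sensitive array 3 and above all control arrays.

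The surface receptors included the largest excess. Ms4a1, which encodes the membrane protein CD20, read 6.22, 2.02, 2.73, 4.003 and 4.40 on the control arrays, 2.93, 4.28, 9.55 and 3.72 on the sensitive arrays and 4.81, 4.77, 6.07 and 4.56 on the resistant arrays. Sensitive array 3 was 10.04-fold above control array 1 and 37.0-fold above the median of the other 12 arrays. The second Ms4a1 probe set gave the same order at the top, with 8.44 on sensitive array 3, 6.004 on control array 1 and 4.76 on resistant array 3. Cd22, an inhibitory co-receptor that binds sialic acid, read 7.73, 4.16, 5.21, 6.02 and 6.33 on the control arrays, 6.14, 6.45, 9.40 and 6.502 on the sensitive arrays and 6.05, 5.53, 6.17 and 6.29 on the resistant arrays. Apart from sensitive array 3, control array 1 was the high sample and control array 2 the low one, and the sensitive and resistant arrays lay close together between them. The second Cd22 probe set was also highest on sensitive array 3, at 5.41, with control array 1 next at 3.75.

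Cr2 and Fcer2a, receptors that mark mature and follicular B cells, were near the bottom of the scale except on sensitive array 3. Cr2 read 3.57, 3.03, 2.95, 2.82 and 2.83 on the control arrays, 3.25, 2.65, 6.70 and 2.58 on the sensitive arrays and 3.34, 2.76, 3.44 and 2.91 on the resistant arrays. The other 12 arrays thus lay between 2.58 and 3.57, and sensitive array 3 was 8.78-fold above the highest of them. Fcer2a read 3.46, 2.61, 2.54, 2.09 and 2.34 on the control arrays, 2.79, 2.51, 6.08 and 2.42 on the sensitive arrays and 2.48, 2.60, 2.67 and 2.84 on the resistant arrays. Its excess over control array 1 was 2.62, but the second Fcer2a probe set did not share it. That probe set read 2.34 on sensitive array 3 and was highest on resistant array 4, at 3.29, so the probe sets of this gene disagree.

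The probe sets of the transcription factors Spib and Pax5 gave different profiles. Spib, an ETS family factor of B cells and plasmacytoid dendritic cells, read 5.24, 2.96, 3.15, 3.28 and 3.47 on the control arrays, 3.06, 2.52, 7.58 and 3.09 on the sensitive arrays and 4.28, 3.64, 5.48 and 3.77 on the resistant arrays. Sensitive array 3 was 4.28-fold above resistant array 3, and control array 1 came next. Pax5, the factor that commits cells to the lineage, read 3.15, 3.39, 4.35, 3.39 and 3.23 on the control arrays, 4.35, 4.04, 3.82 and 3.42 on the sensitive arrays and 3.46, 3.67, 3.52 and 3.49 on the resistant arrays. Sensitive array 1 and control array 3 were highest, sensitive array 3 was 0.53 below them on the log2 scale, and control array 1 was the lowest of all. The second Pax5 probe set read 2.92 on sensitive array 3 and was highest on sensitive array 1, at 3.62, so neither probe set showed the excess. The Pax5 probe sets read at most 4.35 and 3.62 on any array, against a median of 4.23 over all genes tested. Whether such low-reading probe sets can show a change was not tested.

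Control array 1 and resistant array 3 came next after sensitive array 3. Control array 1 was among the 3 highest arrays for 8 of the 9 genes and resistant array 3 for 6 of the 9. The share of all genes tested for which they were was not computed. Control array 1 exceeded the median of the other 12 arrays by more than 2-fold for 5 of the 9, against 4.19% of all genes tested. Resistant array 3 did so for 4 of the 9, against 2.27%. Among the other 12 arrays, control array 1 led for Cd79a, Ms4a1, Cd22, Cr2 and Fcer2a, and resistant array 3 led for Cd79b, Blk and Spib. Control array 2 was the array with the lowest centred mean of the 9 genes, at -1.06, against 3.07 on sensitive array 3, 0.83 on control array 1 and 0.66 on resistant array 3. The order therefore did not follow the groups, since these 3 high arrays came from 3 different groups.

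Promoter sequences were looked up for the genes because most of them were high on the same array. RefSeq windows of GRCm38.p6 matched 6 of the 9 genes, in 8 windows, with 3 for Fcer2a, and Cd79b, Blk and Ms4a1 had no entry. The 250 bases before each annotated start are printed 5′ to 3′ for 4 genes high on sensitive array 3 and for Pax5, which was not. The 3 Fcer2a windows are not printed. The Cd22 window lies inside the span of that gene (30865404 to 30880342), so its start is not the outermost one. The Cr2 and Spib windows overlap the ends of their gene spans. With a single gene on the other side, the windows are a description and do not allow a comparison. Capitals mark matches on either strand to 4 short motifs: the octamer ATGCAAAT that POU factors bind, the EBF core CCCNNGGG, the purine-rich ETS core GAGGAA and the E-box CAGGTG that E proteins bind. The windows are Cd79a (chr7:24897247-24897496, plus strand), Cd22 (chr7:30879029-30879278, minus strand), Cr2 (chr1:195176720-195176969, minus strand), Spib (chr7:44532072-44532321, minus strand) and Pax5 (chr4:44710695-44710944, minus strand).
Cd79a: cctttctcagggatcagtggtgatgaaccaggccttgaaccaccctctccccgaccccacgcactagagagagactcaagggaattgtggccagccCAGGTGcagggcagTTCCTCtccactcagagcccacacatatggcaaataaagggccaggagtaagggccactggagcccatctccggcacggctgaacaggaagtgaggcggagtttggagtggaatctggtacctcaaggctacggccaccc
Cd22: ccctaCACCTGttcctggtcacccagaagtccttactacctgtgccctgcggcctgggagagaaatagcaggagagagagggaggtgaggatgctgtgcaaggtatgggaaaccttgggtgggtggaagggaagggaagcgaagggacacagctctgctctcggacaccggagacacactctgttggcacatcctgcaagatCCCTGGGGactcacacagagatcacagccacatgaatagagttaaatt
Cr2: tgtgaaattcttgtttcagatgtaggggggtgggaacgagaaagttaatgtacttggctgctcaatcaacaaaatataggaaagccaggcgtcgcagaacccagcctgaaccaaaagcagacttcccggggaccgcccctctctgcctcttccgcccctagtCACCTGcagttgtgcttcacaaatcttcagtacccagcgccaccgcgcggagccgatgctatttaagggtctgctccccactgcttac
Spib: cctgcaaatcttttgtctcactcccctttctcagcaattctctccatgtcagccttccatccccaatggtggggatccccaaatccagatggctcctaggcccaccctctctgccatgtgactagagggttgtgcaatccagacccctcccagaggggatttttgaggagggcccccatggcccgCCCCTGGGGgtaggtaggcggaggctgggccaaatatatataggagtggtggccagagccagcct
Pax5: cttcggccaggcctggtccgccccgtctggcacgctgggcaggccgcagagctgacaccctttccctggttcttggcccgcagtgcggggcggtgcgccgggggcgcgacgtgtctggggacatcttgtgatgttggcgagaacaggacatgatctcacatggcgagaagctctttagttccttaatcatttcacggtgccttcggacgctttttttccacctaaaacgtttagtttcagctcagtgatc

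In Cd79a, the E-box begins 154 bases before the start and the ETS core, read on the opposite strand, 140 bases before it. Cd22 has an E-box 245 bases and an EBF core 48 bases before the start, and Cr2 has an E-box 88 bases before it. Spib has overlapping EBF cores at 65 and 64 bases, and the Pax5 window has no match to any of the 4 motifs. Among the 8 windows of these genes, 4 held the E-box, against 17.2% of 32841 windows of the same length, 2 held the EBF core, against 11.8%, 1 held the ETS core, against 23.3%, and 0 held the octamer, against 1.6%. One of the 3 Fcer2a windows, inside the span of the gene, holds 2 E-boxes. The other Fcer2a windows hold no match, among them the one at the outermost start. Any of the 4 motifs was in 5 of the 8 windows and in 44.8% of all windows. A match describes the letters only, and these motifs were chosen after the values and windows had been seen.

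The comparison of sensitive with control arrays gave differences of 1 sign that were all within the spread between arrays. All 9 genes were higher on the sensitive arrays, against 58.4% of all genes tested. Their median log2 difference was 0.76, against 0.085 over all genes tested. Of the 9, 0 were called at an adjusted p under 0.05 by limma. Over all genes 0 of 15384 were called (0%), and 1829 (11.9%) had an unadjusted p under 0.05, among them 0 of the 9. Ms4a1 had means of 5.12 ± 3.005 (SD, n = 4) on sensitive and 3.87 ± 1.62 (SD, n = 5) on control arrays, a difference of 1.24 with a 95% interval of -1.20 to 3.69. With its second probe set that difference was 0.23, and with the mean of both 0.73. Cd22 had means of 7.12 ± 1.52 and 5.89 ± 1.33, a difference of 1.23 with an interval of -0.29 to 2.76 and the smallest adjusted p of the 9 genes, 0.481 by limma. The difference of Cd79b was 0.81 (interval -1.26 to 2.88), that of Cr2 0.76 (-0.63 to 2.14) and that of Fcer2a 0.84 (-0.43 to 2.11). The Fcer2a value is that of its main probe set, and the second probe set did not share the excess on sensitive array 3. For all 9 genes the ranges of the groups overlapped, and the share of all genes for which they did was not computed.

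The sign rested on sensitive array 3 for 7 of the 9 genes. Without that array the median difference was -0.23, and only Cd22 (0.47) and Pax5 (0.43) were still higher on the sensitive arrays. The mean of Ms4a1 on the 3 sensitive arrays left was 3.64 ± 0.68 (SD, n = 3), a difference from control of -0.23 (interval -1.87 to 1.40). The mean of Spib was 2.89 ± 0.32 (SD, n = 3), a difference of -0.73 (interval -1.86 to 0.39). None of the 9 was called without it, and none had an unadjusted p under 0.05. Pax5, which sensitive array 3 did not raise, kept a difference of 0.40 with that array (adjusted p = 0.532 by limma) and 0.43 without it (adjusted p = 0.397 by limma).

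The comparison of resistant with sensitive arrays asked whether the genes differ once tumors no longer respond to B20. Of the 9, 8 were lower on the resistant arrays and Spib was higher, while 42.1% of all genes tested were higher. The median log2 difference of the 9 was -0.37, against -0.070 over all genes. The limma test called 0 of the 9 and 0 of all genes (0%), while 1087 genes (7.07%) and 0 of the 9 had an unadjusted p under 0.05. The difference of Cd22 was -1.11 (interval -2.72 to 0.49), that of Fcer2a -0.80 (-2.14 to 0.54) and that of Cr2 -0.68 (-2.15 to 0.78). With the mean over all probe sets of a gene, Cd22 differed by -0.82 and Fcer2a by -0.37. Blk and Ms4a1 differed by -0.01 and -0.06, and both turned sign when arrays were centred on their medians instead of quantile normalized, to 0.0085 and 0.032. Without sensitive array 3 the median was 0.32 and 7 of the 9 were higher on the resistant arrays, with Cd22 (-0.36) and Pax5 (-0.40) the exceptions. Spib then differed by 1.40 (interval 0.22 to 2.58), with a resistant mean of 4.29 ± 0.84 (SD, n = 4), a sensitive mean of 2.89 ± 0.32 (SD, n = 3) and an adjusted p of 0.440 by limma. Ms4a1 then differed by 1.41 (interval -0.30 to 3.13), with an adjusted p of 0.468 by limma.

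**Figure D2:**
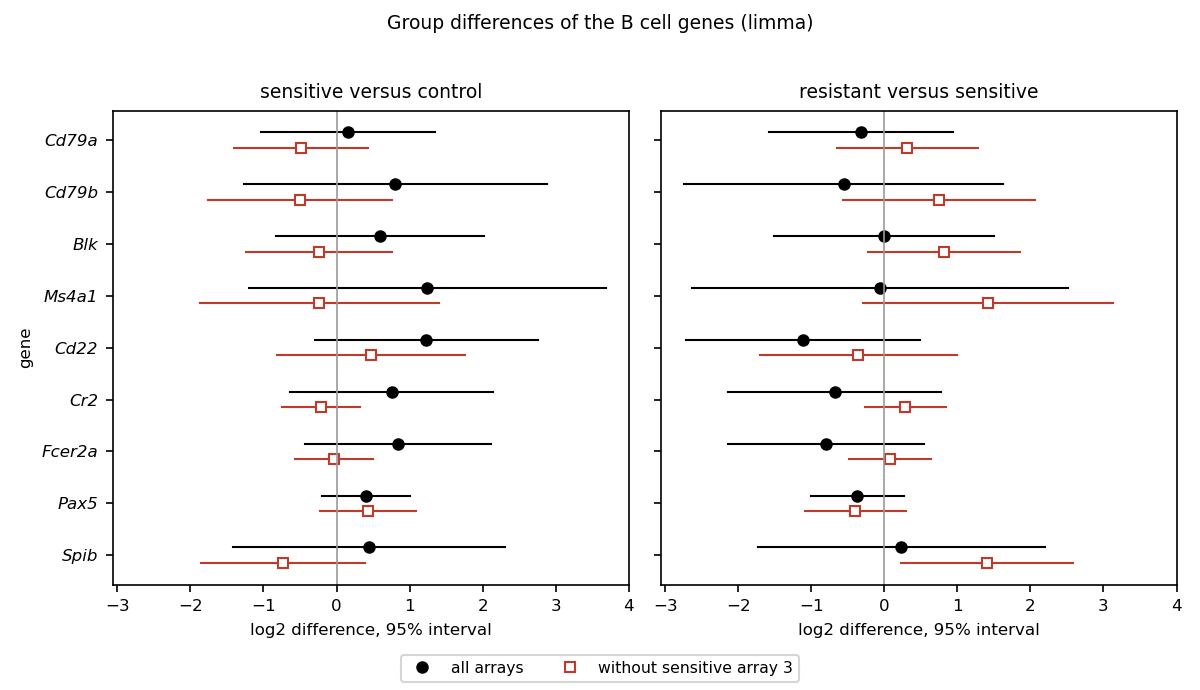
Log2 difference between group means (x axis) for each B cell gene (y axis), with 95% intervals from limma, on all arrays (black) and without sensitive array 3 (red). The 95% interval of Spib in resistant versus sensitive without that array, 0.22 to 2.58, is the only interval drawn that excludes 0, and it did not pass the adjusted test.

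No difference between resistant and control arrays passed the test. Of the 9 genes, 8 were higher on the resistant arrays and Cd79a was lower, while 54.3% of all genes tested were higher. The median log2 difference of the 9 was 0.12, against 0.026 over all genes tested. None of the 9 and 0 of all genes were called (0%), and 388 genes (2.52%) and 0 of the 9 had an unadjusted p under 0.05. The difference was highest for Ms4a1, at 1.18 (interval -1.26 to 3.63), followed by Spib at 0.67 (-1.19 to 2.53) and Blk at 0.58 (-0.85 to 2.01). With the second Ms4a1 probe set the difference was -0.22, so this order depends on the probe set. Leaving out single arrays, Ms4a1 ran from 0.72 without control array 2 to 1.77 without control array 1, Spib from 0.27 without resistant array 3 to 1.08 without control array 1, and Blk from 0.17 to 0.84 without the same arrays as Spib. The mean of Ms4a1 was 5.06 ± 0.69 (SD, n = 4) on resistant arrays, against 3.87 ± 1.62 (SD, n = 5) on control arrays, and the ranges overlapped only through control array 1.

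Sensitive array 4 had the largest 3′ to 5′ difference of the control transcripts, a measure of RNA degradation, at 5.75 on the log2 scale, against 2.15 to 4.11 on the other arrays and 2.99 on sensitive array 3. Without sensitive array 4, limma called 428 genes in resistant versus sensitive and 696 in sensitive versus control, none of them among the 9. Without control array 1 it called 4 genes in resistant versus sensitive, and without control array 3 it called 1 in sensitive versus control. The lowest adjusted p of any of the 9 genes under any setting tried was 0.257 by limma, for Fcer2a in sensitive versus control without sensitive array 4. Sensitive array 3 correlated with the other sensitive arrays at 0.664 to 0.871 over the genes tested, and replicate pairs of the control and resistant groups correlated at 0.896 to 0.985.

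Other genes of B cell identity were also high on sensitive array 3. Of 19 tested genes of a list of 24, all 19 lay above the median of the other arrays, 13 were highest on this array and 8 exceeded every other array by more than 2-fold, with a median excess over the median of the others of 2.06 against -0.059 for all genes. Fcmr, the Fc receptor for IgM, read 10.05 on sensitive array 3, 5.74 on control array 1 and 2.66 to 4.49 on the other arrays. H2-Ob, which tunes antigen loading in B cells, read 9.86 there, 6.86 on control array 1 and 2.01 to 5.76 on the others, and the Fc receptor-like gene Fcrla read 9.81 there. At the low end, Vpreb3 and Ly6d exceeded the median of the others by only 0.44 and 0.34. No gene of the list was called in any comparison, and the smallest p belonged to Siglecg, a sialic acid-binding inhibitory receptor, with a difference of 0.90 between sensitive and control arrays (adjusted p = 0.339 by limma).

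Factors of the B lineage were also often highest on this array. Of 15 tested, 9 were highest on sensitive array 3 and 8 exceeded every other array by more than 2-fold, with a median excess of 2.25. Pou2af1, a co-activator of octamer-binding factors, read 9.61 on sensitive array 3, 6.91 on control array 1, 6.44 on control array 5 and 2.01 to 5.93 elsewhere. Ebf1, an early factor of the lineage that acts together with Pax5, read 7.66 there and 2.01 to 3.60 on the other 12 arrays, and Mef2c read 8.67 against 2.01 to 7.01. Ebf1 and Pou2af1 were thus highest on sensitive array 3, where Pax5, whose probe sets read at most 4.35 on any array, was not. Bcl11a was 0.11 below the median of the others, and Spi1, which myeloid cells also use, was 1.08 below it. None was called between groups, and Bcl6 had the smallest p, with a difference of 0.88 between sensitive and control arrays (adjusted p = 0.291 by limma).

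Genes of receptor signaling that other leukocytes share stood out less on this array. Of 18 tested, 6 were highest on sensitive array 3 and 2 exceeded every other array by more than 2-fold, with a median excess of 0.54. Rasgrp3, an activator of Ras, exceeded the median of the others by 2.91 but was higher on control arrays 4 and 5 (8.41 and 8.56) than on sensitive array 3 (7.84). The phosphatase Inpp5d and the kinase Prkcb exceeded it by 2.83 and 2.78. Malt1 and Cd81 were 1.20 and 1.17 below it, and Malt1, a scaffold protease of NF-kappaB signaling, had the smallest p, with a difference of -2.54 between sensitive and control arrays (adjusted p = 0.215 by limma). No gene of this list was called in the 3 comparisons.

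Lists of B cell stages differed among themselves. Of the 12 plasma cell genes, 6 were highest on sensitive array 3, with a median excess of 0.99. The immunoglobulin A constant gene Igha read 11.50 on sensitive array 3, 10.79 on control array 5, 9.87 on control array 1 and 9.37 on sensitive array 4. Jchain, which joins secreted IgM and IgA, read 10.82, 9.89, 10.11 and 7.07 on the same 4 arrays, and Mzb1, a chaperone of antibody secretion, read 8.99, 7.51, 7.18 and 3.85. Control array 5 was thus within 2-fold of sensitive array 3 for Igha and Jchain but not for Mzb1, while its Ms4a1 level was 4.40 against 9.55 there. Sdc1 and Prdm1, which macrophages and epithelial cells also express, were 1.20 and 0.61 below the median of the others, and Sdc1 had the smallest p (-1.20 between sensitive and control arrays, adjusted p = 0.249 by limma). Ighm, the IgM heavy chain, named after its values were seen, read 11.32 on sensitive array 3 and was higher on control array 1 (12.39), resistant array 3 (12.39) and control array 5 (12.22), and lowest on control arrays 2 and 3 (5.13 and 4.82). Immunoglobulin probe sets can cross-hybridize between related genes.

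Precursor, germinal center and B-1 or marginal zone lists had medians near or below that of the other arrays. Of 7 tested precursor genes, 1 was highest on sensitive array 3, and the list's median excess was -0.00. Of these genes 3 were more than 2-fold above the median of the others: the growth factor receptor Kit by 2.93, the cytokine receptor Il7r by 2.30 and Dntt by 1.29, with Kit higher on control array 5 and Il7r on sensitive array 4. Dntt, the polymerase that adds bases to rearranging receptor genes, had a level of 3.62 there and had the smallest p of that list (0.71 between sensitive and control arrays, adjusted p = 0.330 by limma). All 4 tested germinal center genes lay below the median of the others, with a median of -0.89. Of the 11 B-1 and marginal zone genes, Cd5 and Dtx1 exceeded every other array by more than 2-fold on sensitive array 3, at 6.05 and 7.36, and the tetraspanin Cd9, which macrophages also carry, and Myof were 3.15 and 3.01 below the median of the others. Cd9 had the smallest p (-2.45 between sensitive and control arrays, adjusted p = 0.201 by limma).

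**Figure D3:**
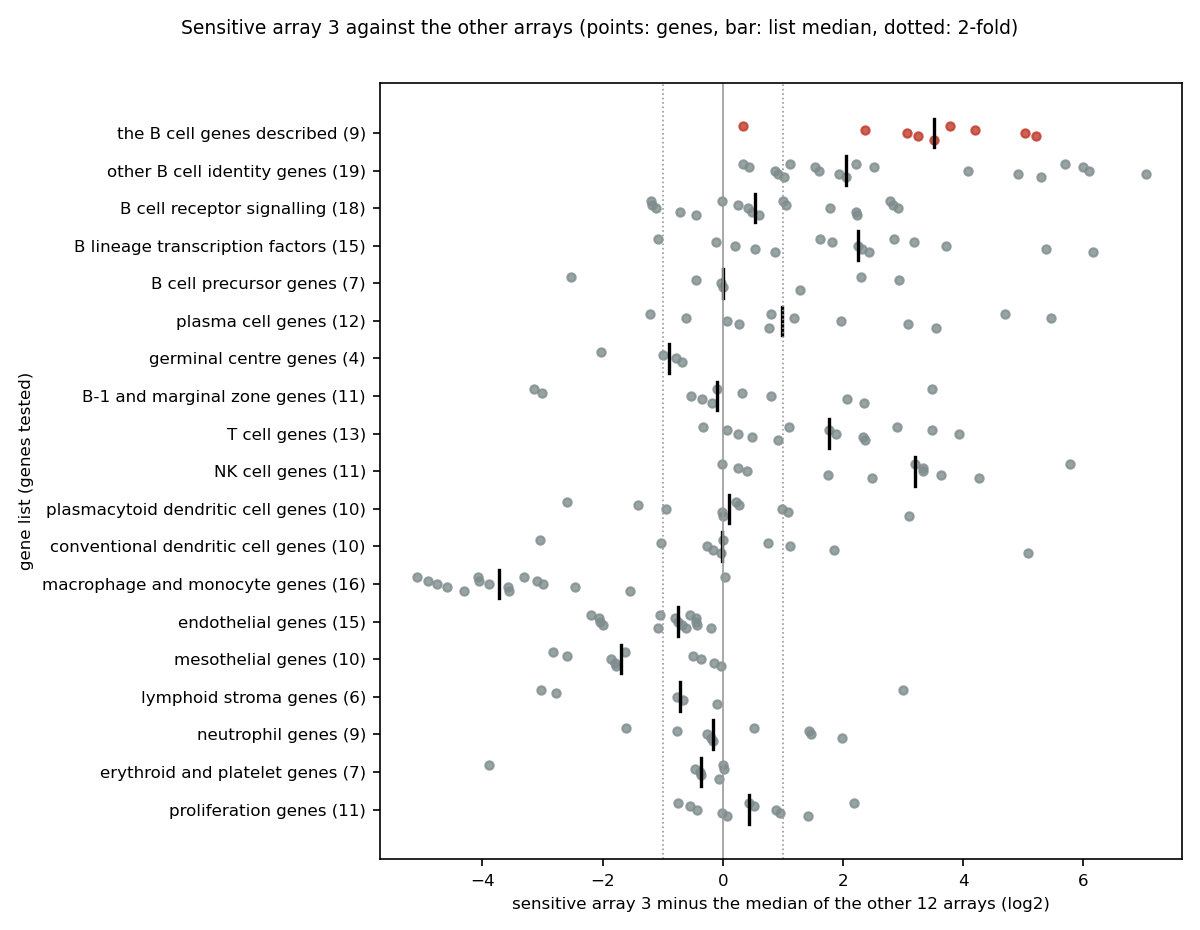
Level on sensitive array 3 minus the median of the other 12 arrays (x axis, log2) for each tested gene (points), by list (y axis, number of genes tested in brackets), with black bars for list medians and dotted lines at 2-fold. The B cell genes have a median of 3.51, other B cell identity genes 2.06, NK cell genes 3.19 and macrophage and monocyte genes -3.73.

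Markers of other lymphocytes moved with the B cell genes on the same array. Of 11 tested NK cell genes, 8 were highest on sensitive array 3, with a median excess of 3.19, and the list's median was 5.71 there, 4.38 on control array 1 and 2.39 to 2.95 on the other 11 arrays. The granzyme Gzma read 8.70 on sensitive array 3 and 7.09 on control array 1, the receptor chain Klrd1 6.28 and 3.94, and the factor Tbx21 5.71 and 4.38. Of these NK genes, Ncr1, a receptor that defines the cells, read 2.85 on sensitive array 3 and was 0.25 above the median of the others. The Ncr1 probe set read at most 2.97 on any array, and whether it can show a change was not tested. Of 13 tested T cell genes, 8 were highest on sensitive array 3, with a median excess of 1.76, and the list's median was 4.84 there, 4.35 on control array 1 and 2.62 to 3.48 elsewhere. Cd3g read 6.17 there, Cd5 6.05 and Cd2 5.16, but Cd3e, Cd8a and Cd4 were 0.06, 0.26 and -0.33 from the median of the others. Cd5 is also on the B-1 and marginal zone list, and its value there is the same measurement. The part of these cell types in the levels of genes they share with B cells was not tested.

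Dendritic cell markers did not follow as a group. Siglech, a marker of plasmacytoid dendritic cells, read 2.74 on sensitive array 3, 0.01 above the median of the others. Its probe set read at most 3.93 on any array, against a median of 4.23 over all genes tested. Whether so low a probe set can show a change was not tested. The 10 plasmacytoid genes had a median excess of 0.11, with Ccr9 at 3.10 and Bst2 at -2.59. The 10 conventional dendritic cell genes had a median excess of -0.01, with Ccr7, a homing receptor that B cells, T cells and dendritic cells share, at 5.08 and Clec10a at -3.04.

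Macrophage, endothelial and mesothelial markers were low on the array where the B cell genes were high. Of 16 macrophage and monocyte genes, 15 were more than 2-fold below the median of the others on sensitive array 3, against 11.0% of all genes tested. The list's median was 4.34 there, 4.12 and 3.93 on sensitive arrays 1 and 2 and 7.51 to 9.66 on the other 10 arrays. On these 3 arrays with a low macrophage list median, the median of the B cell genes was 3.25, 3.15 and 6.74 (sensitive arrays 1 to 3). The median of the 15 endothelial genes was 2.93 on sensitive array 3, 7.07 and 7.38 on control arrays 4 and 5 and 2.97 to 4.27 on the remaining arrays, and Pecam1, which encodes CD31 itself, read 2.32 on sensitive array 3, 2.39 to 3.41 on the 10 remaining arrays and 6.56 on each of control arrays 4 and 5. The list's median and Pecam1 were thus low on sensitive array 3 and on all other arrays except control arrays 4 and 5, against the label of endothelial cells. All 15 genes lay below the median of the others on sensitive array 3. On the remaining arrays the list was not uniform, since Egfl7 was highest on sensitive array 1, at 6.66, and Eng read 6.70 there. The 10 mesothelial genes had a median of 2.60 there, against 7.19 and 7.37 on sensitive arrays 1 and 2. The 6 lymphoid stroma genes, the 9 neutrophil genes and the 7 erythroid and platelet genes had median excesses of -0.71, -0.17 and -0.36 on sensitive array 3, and Cxcl13, the chemokine that attracts B cells, was 3.02 below the median of the others, while the cytokine Tnfsf11 was 3.002 above it. Of the neutrophil genes, 3 were more than 2-fold above that median, Ngp by 1.99, Camp by 1.48 and S100a9 by 1.43, and 1 was more than 2-fold below it. The 11 proliferation genes had a median excess of 0.43. The part of this difference in cell makeup in the B cell values was not tested.

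**Figure D4:**
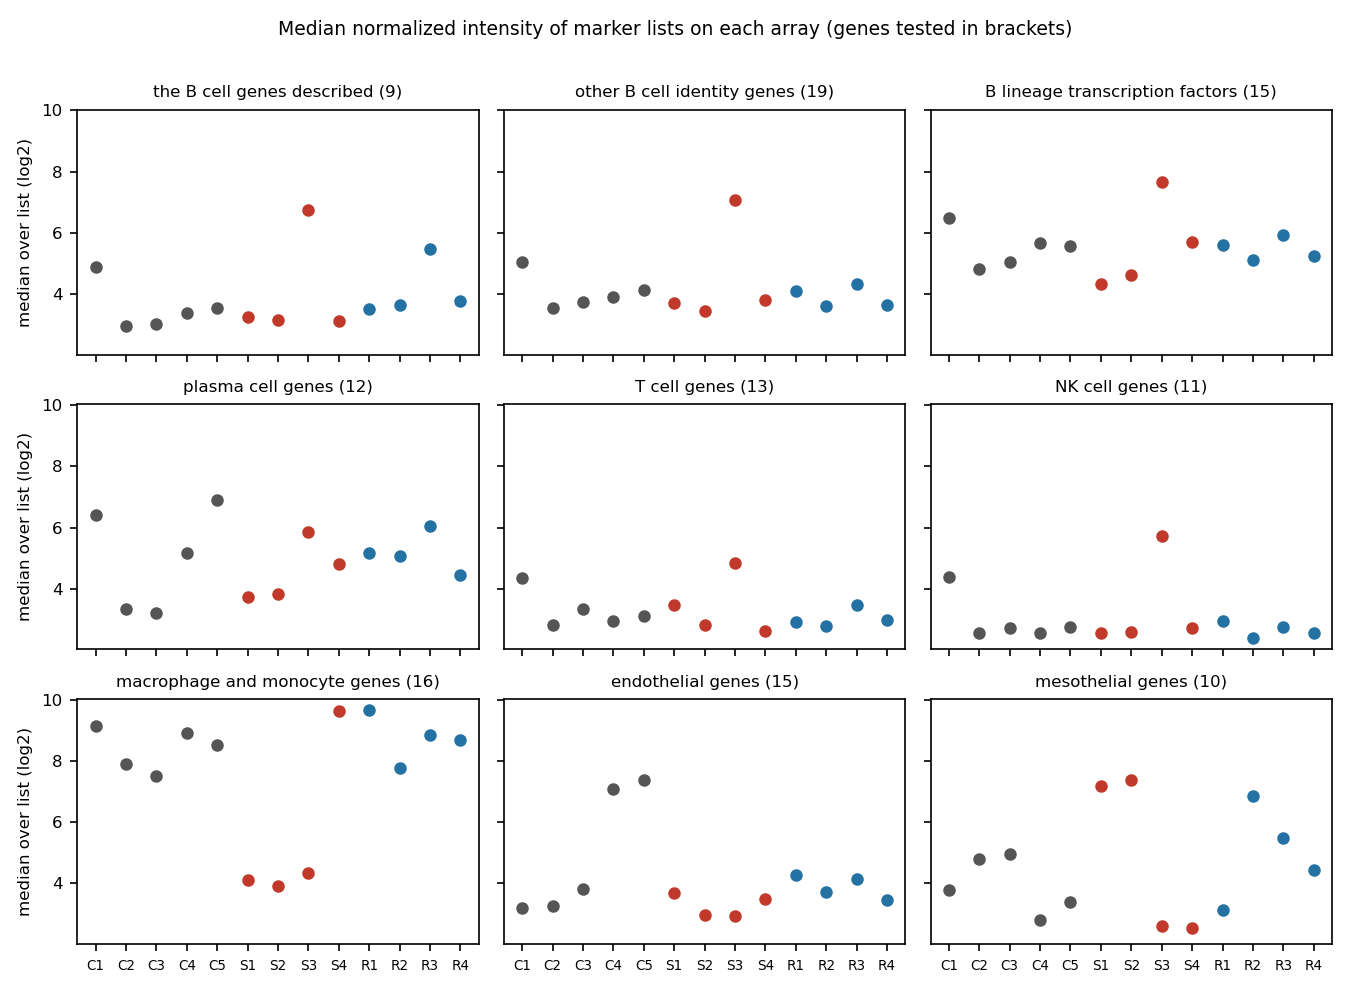
Median normalized log2 intensity (y axis) of the B cell genes and of 8 marker lists on the 13 arrays (x axis; C control in gray, S sensitive in red, R resistant in blue), with the number of genes tested in brackets. B cell and NK cell lists are highest on sensitive array 3, at 6.74 and 5.71, where the macrophage list is at 4.34 and the endothelial list at 2.93.

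The genes with the profile nearest to the mean profile of the 9 B cell genes included B cell and cytotoxic lymphocyte genes. Likeness was the root mean square distance over the 13 arrays between profiles centred on their means, on the log2 scale, and its median over all genes was 1.14. The 10 nearest genes that were not among the 9 were Fcrl1 (0.33), Mbnl3 (0.36), Rundc3b (0.37), Fasl (0.37), Tbx21 (0.38), Hook1 (0.39), Eaf2 (0.39), Cxcr6 (0.40), Eomes (0.40) and Ccr9 (0.40). Fcrl1 is an Fc receptor-like protein of B cells, Tbx21 and Eomes are factors of NK and cytotoxic T cells, and Fasl is a death ligand of the same cells. Fcrl1 read 7.07 on sensitive array 3, 3.81 on control array 1 and 2.25 to 3.66 on the rest, and Mbnl3, an RNA-binding protein, read 6.18, 3.49 and 2.01 to 3.22. Among the 9 genes themselves, Blk (0.36) and Cr2 (0.37) lay nearest to their mean profile, and Ms4a1 (0.90), whose excess was the largest, and Pax5 (1.10), which had none, lay farthest.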

How the data were processed

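Per the labels, biotinylated cRNA was prepared by the Affymetrix protocol and processed with MAS5, while the study's methods describe bead chips and BRB-ArrayTools. The values deposited by the authors, for 45101 Affymetrix probe sets, were taken as log2 intensities from their range, and the base of the logarithm is not given in the sources used here. They were quantile normalized and set to a floor at the 30th percentile of all values. A gene had to exceed the floor on 4 or more of the 13 arrays to be tested, with 1 probe set per gene, with limma 3.58.1 in R 4.3.3 (lmFit and eBayes with an intensity trend, 3 groups, two-sided, Benjamini-Hochberg adjustment over all genes tested). Symbols came from the platform table, in which 34958 probe sets had 1 symbol, 932 several and 9211 none listed. The fit was tested on simulated data. The number of arrays limits the precision.

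The members, the gene lists and the tests were chosen with earlier results of these data known. Named genes are all 9 members, up to 3 highest and 2 lowest genes of each list described by their difference on sensitive array 3, the gene of smallest p, and the 10 nearest profiles. A few more are marker genes that define a cell type, and these were named after their values were seen. Promoters came from RefSeq, GRCm38.p6. Figures were drawn with matplotlib. Alternatives covered scaling, floor, filter, probe set rule, variance model, the methods' t-test (without the random variance model and the filters that the study applied), a replicate block and leaving out single arrays.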

Additional observations from a re-analysis of the deposited data

Results flagged for a closer look

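Several B cell genes had 1 array of a group far from its nearest neighbor, measured as the gap to the nearest array over the range of the group and compared with Dixon's 95% critical value. On sensitive array 3 this share was 0.901 for Cd79b, 0.897 for Fcer2a, 0.890 for Cd22, 0.887 for Spib and 0.839 for Cr2, with that array the highest of 4 in each. On control array 1, the highest of 5, it was 0.779 for Spib, 0.732 for Cd79a and 0.718 for Cr2. It was 0.799 for Pax5 on control array 3 and 0.835 for Ms4a1 on resistant array 3. These are 10 of 27 gene and group pairs, and the pairs share arrays. The share over all genes tested was not computed, and the genes were chosen with earlier results of these data known. The count is therefore a description and not a test. Ms4a1, Blk and Cd79a on sensitive array 3 did not reach the critical value, although that array was the highest of the group for each.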

How the results depend on the processing

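The excess of sensitive array 3 kept its direction and size under all 8 alternatives of scaling, floor, filter and probe set rule. Its median over the highest other array was 2.10 and ranged from 1.67 (mean over all probe sets of a gene) to 2.17 (values as deposited). The number of genes over 2-fold above every other array was 7 in each, except 6 of 8 with a floor at the 50th percentile, which left Fcer2a untested. No B cell gene was called in any comparison under any alternative, and their medians moved by less than the SD between arrays of a group, 1.21, which sensitive array 3 widens. Against the SD of 0.77 over the other 12 arrays, the move of the median in sensitive versus control from 0.76 to -0.23 without sensitive array 3 was larger.

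Counts of all genes called in resistant versus sensitive were 0, 1 with a floor at the 50th percentile, 4 among genes above the floor on all 13 arrays and 2 with only the arrays of both groups. Leaving out single arrays gave 0 to 428 calls in resistant versus sensitive, 0 to 696 in sensitive versus control and 0 in resistant versus control, the high counts without sensitive array 4; the cause was not tested. The methods' t-test (Student, equal variances), without the study's random variance model and filters, had 529, 1371 and 1043 genes at an unadjusted p under 0.05 in resistant versus sensitive, sensitive versus control and resistant versus control, and 0 after Benjamini-Hochberg adjustment in each.

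Leaving out single arrays, the median log2 difference of the B cell genes ran from -0.79 to 0.32 in resistant versus sensitive, from -0.23 to 1.16 in sensitive versus control and from 0.037 to 0.52 in resistant versus control. The 0.32 and the -0.23 were without sensitive array 3. In resistant versus sensitive, single genes ran from -0.64 to 0.32 (Cd79a), -1.11 to 0.74 (Cd79b), -0.43 to 0.82 (Blk), -0.79 to 1.41 (Ms4a1), -1.09 to 0.29 (Cr2), -1.15 to 0.075 (Fcer2a) and -0.28 to 1.40 (Spib). In sensitive versus control they ran from -0.48 to 0.51 (Cd79a), -0.50 to 1.36 (Cd79b), -0.24 to 0.97 (Blk), -0.23 to 1.97 (Ms4a1), -0.21 to 1.16 (Cr2), -0.038 to 1.18 (Fcer2a) and -0.73 to 0.95 (Spib). In resistant versus control they ran from -0.38 to 0.19 (Cd79a), -0.24 to 0.52 (Cd79b), -0.32 to 0.58 (Cd22), -0.035 to 0.21 (Cr2), -0.091 to 0.25 (Fcer2a) and -0.055 to 0.24 (Pax5). Centring arrays on their medians turned Blk (0.0085) and Ms4a1 (0.032) in resistant versus sensitive, and moved the share of all genes that were higher there from 42.1% to 54.4%, in sensitive versus control from 58.4% to 45.3%. The probe set of highest variance turned Ms4a1 in resistant versus control, to -0.22.

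The labels number biological replicates but do not say that a number marks a shared mouse or day. Deviations of same-numbered arrays correlated between -0.43 and 0.53, so the numbers were not taken as pairs. With the replicate number as a block, 0 genes were called in each comparison, the medians were -0.37, 0.71 and 0.23, and Fcer2a (-0.029) and Pax5 (-0.036) turned in resistant versus control.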
